A study of Arabidopsis thaliana with 20 samples.

Results

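The 10 loci described here belong to the auxin pathway of Arabidopsis thaliana. They are 2 genes of auxin synthesis, TAA1 (AT1G70560) and YUC8 (AT4G28720), and 8 Aux/IAA genes, IAA1 (AT4G14560), IAA2 (AT3G23030), IAA3 (AT1G04240), IAA5 (AT1G15580), IAA7 (AT3G23050), IAA17 (AT1G04250), IAA19 (AT3G15540) and IAA29 (AT4G32280). They were taken by locus identifier from the 33601 loci of the count tables, and all 10 were among the 21404 genes tested, a set kept for reaching 10 counts in 1 or more of the diel libraries. RNA-Seq libraries came from aerial tissue of 2-week-old seedlings of the wild-type accession Columbia-0 (Col-0), grown on plates at 23 °C with 12 h of light a day. Heat-treated seedlings spent 1 h at 30 °C while mock-treated controls stayed at 23 °C, from ZT 12.5 in the PM (just after lights off) or ZT 0.5 in the AM (just after lights on), where ZT counts the hours since lights on. The 4 diel groups, PM heat, PM control, AM heat and AM control, had 4 libraries each, and 4 further libraries, 1 for each of the same treatments and times, came from seedlings moved to constant light (LL) beforehand. No group carried a mutation or a transgene. The labels call the source whole plant tissue whereas the protocols name aerial tissue, and the sources used here do not say whether replicates were separate cultures, so that p-values measure the spread between these libraries, which may be technical.

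Indole-3-acetic acid, the main auxin, is made from tryptophan in a pair of steps: the aminotransferase TAA1 makes indole-3-pyruvate, and flavin monooxygenases of the YUCCA family, YUC8 among them, turn it into the hormone. Auxin bound to a TIR1/AFB receptor leads to the breakdown of Aux/IAA proteins, the repressors that hold auxin response factors (ARFs) in check, and many Aux/IAA genes are themselves switched on by auxin within minutes, which is why their transcripts are used as a readout of the response. In Arabidopsis seedlings kept warm for long periods, the transcription factor PIF4 is known to promote YUC8 and stem elongation, and IAA19 and IAA29 are known as growth-associated members of the family.

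The diel libraries held 14637914 to 38812441 counted reads each, and the LL libraries 8594948 to 19957156. Levels are given in CPM, counts scaled to a common library total, with totals adjusted by edgeR's TMM factors. The heat-induced genes HSFA2, HSP101 and MBF1c were higher in heat at both times of day, by log2 fold changes of 4.77 to 6.28, and the 4 shoot markers RBCS1A, RCA, LHCB3 and PSAF summed to 17453 CPM or more in every diel library, with higher sums in the AM than in the PM. The 6 root markers (CASP1, CASP2, COBL9, EXPA7, RHD6 and RSL4), genes of a tissue that the protocols do not name as harvested, were low but moved with heat. They summed to 6.44 to 20.6 CPM in PM heat, against 21.3 to 39.5 CPM in the PM control, and to 6.41 to 21.0 CPM in AM heat, against 33.8 to 37.4 CPM in the AM control. In a bulk sample, fewer cells of a type and less RNA per cell cannot be told apart.

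Several of the 10 genes sit beside a relative. In the TAIR10.1 annotation IAA3 (1128149 to 1129689) and IAA17 (1136078 to 1138663) lie on chromosome 1 with 6388 bases between them. IAA2 (8180646 to 8182095) and IAA7 (8194606 to 8197161) lie on chromosome 3 with 12510 bases between them, and IAA1 (8360996 to 8362033) lies beside IAA14 on chromosome 4 with 10732 bases between them, each pair on opposite strands with the 5′ ends facing and no protein-coding gene between. TAA1 runs from 26604855 to 26607652 on chromosome 1 and has 5 exons, YUC8 from 14192569 to 14194302 on chromosome 4, IAA5 from 5365512 to 5366497 on chromosome 1, IAA19 from 5264001 to 5265695 on chromosome 3 and IAA29 from 15583332 to 15584903 on chromosome 4. IAA3 and IAA5 each overlap a protein-coding gene on the opposite strand (AT1G04230 and AT1G15570), whose reads are told apart only as far as the counting kept the strands separate.

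The sequence before each gene was searched on both strands, from 250 bases before its annotated start to 50 bases after it, for letters that known factors of the pathway bind. The auxin response element TGTCTC, a site of ARFs, stood in the windows of IAA1, IAA5 and IAA19, with 3 copies in IAA19, and in 14.2% of the 27443 windows of all genes. Its variant TGTCGG stood in those of IAA1 and IAA5 and in 5.12% of all. The G-box CACGTG, bound by PIFs and other factors, was present in IAA7 and IAA19 and in 7.68% of all windows, and the PIF-bound element CACATG in YUC8, IAA3, IAA7 and IAA19 and in 12.9% of all. The heat shock element, searched as TTCNNGAA or GAANNTTC, was present in IAA3 and IAA19 and in 19.3% of all windows, and the evening element AAAATATCT in none of the 10 and in 2.82% of all. Windows of TAA1, IAA2, IAA17 and IAA29 held none of these letters. The stretches that follow are those of the genes whose levels are set against each other in what follows, read 5′ to 3′ on the strand of the gene in TAIR10.1. Capitals mark the matches, read from either strand, and the G-box is the last match in IAA19. Matches after the start, in IAA7 and IAA19, are not shown.
IAA19, chr3:5263807-5263946, from 194 to 55 bases before the start: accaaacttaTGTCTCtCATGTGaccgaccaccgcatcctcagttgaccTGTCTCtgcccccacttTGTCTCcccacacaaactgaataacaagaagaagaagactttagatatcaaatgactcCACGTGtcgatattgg
IAA1, chr4:8360851-8360975, from 145 to 21 bases before the start: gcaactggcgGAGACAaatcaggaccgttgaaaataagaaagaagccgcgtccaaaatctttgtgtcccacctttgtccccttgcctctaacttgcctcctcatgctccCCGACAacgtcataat
IAA5, chr1:5366549-5366733 on the minus strand, from 236 to 52 bases before the start: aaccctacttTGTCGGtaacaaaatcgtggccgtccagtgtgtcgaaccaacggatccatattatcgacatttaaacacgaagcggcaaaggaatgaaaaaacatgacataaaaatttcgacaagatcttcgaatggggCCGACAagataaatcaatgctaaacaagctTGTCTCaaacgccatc
IAA3, chr1:1129690-1129784 on the minus strand, the 95 bases before the start: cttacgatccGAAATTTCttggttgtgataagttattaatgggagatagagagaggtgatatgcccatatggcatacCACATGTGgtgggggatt
YUC8, chr4:14192506-14192531, from 63 to 38 bases before the start: tattcaacgcCACATGggatctcttc
IAA7, chr3:8194574-8194599, from 32 to 7 bases before the start: taatcaagccCACGTGtcataaaccc
A match is a description of the letters and not a tested site.

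The 10 genes spanned levels from under 1 CPM to over 100 CPM. Per kilobase of exon, which allows levels of different genes to be compared, IAA7 was highest in the PM, with 83.3 ± 12.1 CPM per kb in PM heat and 68.2 ± 11.9 in the PM control, whereas IAA17 was highest in the AM, with 79.2 ± 20.9 in AM heat and 69.0 ± 11.2 in the AM control (mean ± SD, n = 4 each). IAA2 and IAA3 also belonged to the abundant members, and YUC8, IAA5 and IAA29 were the 3 lowest in all 4 groups. TAA1, at 2.40 ± 0.448 CPM per kb in PM heat and 7.61 ± 1.85 in the AM control, was between them (mean ± SD, n = 4 each).

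**Figure D1:**
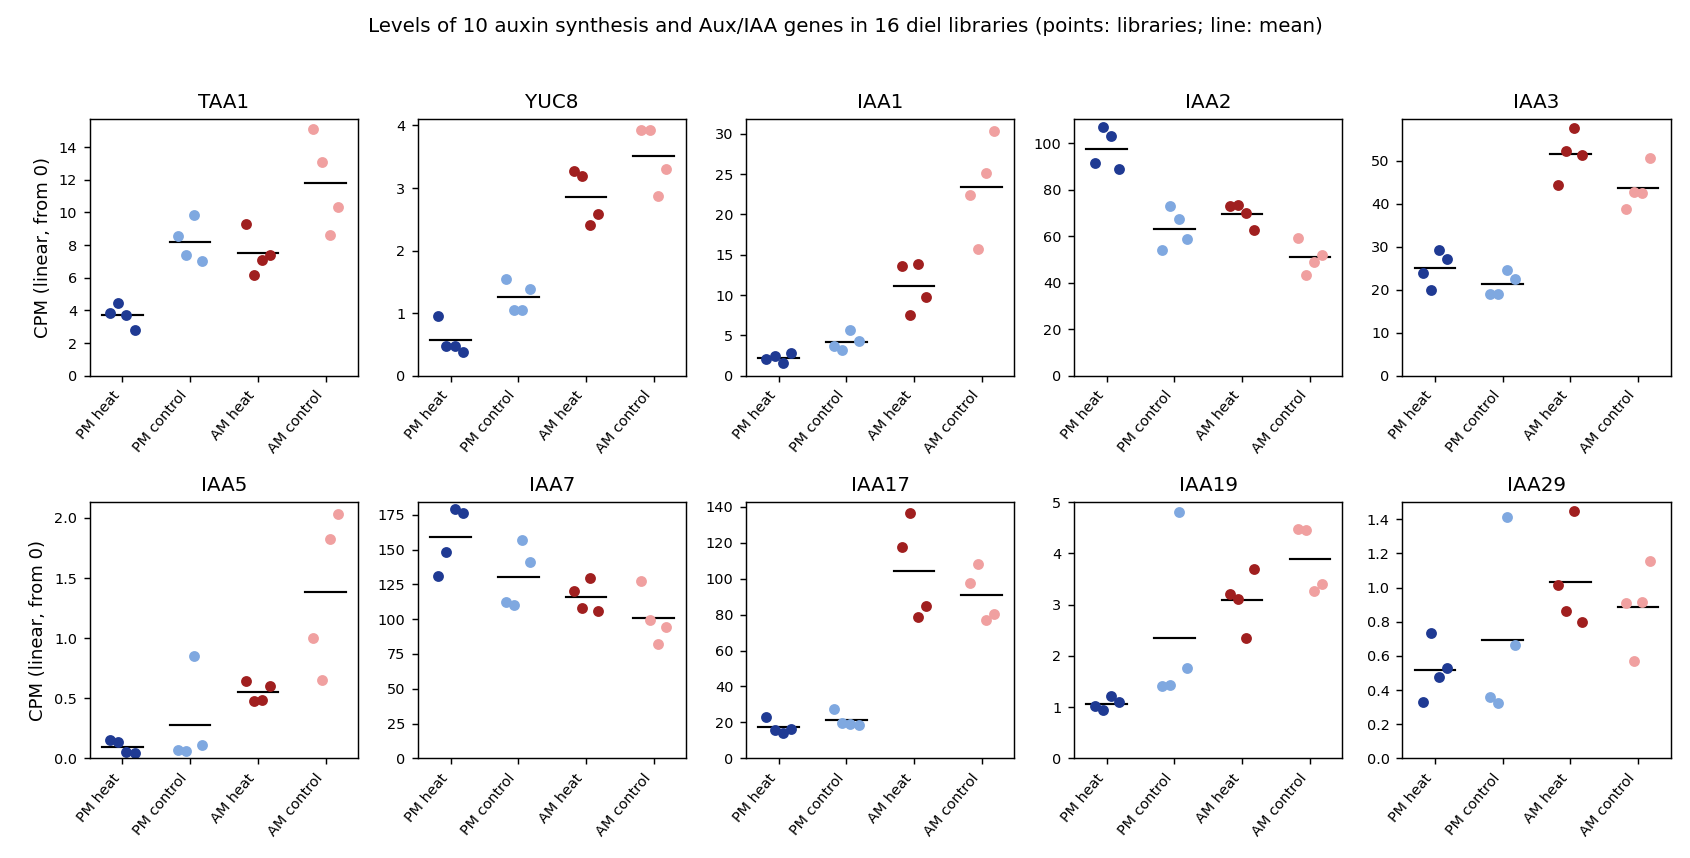
Levels (CPM, linear axes from 0, a separate scale for each gene) of the 10 genes in the 16 diel libraries, where each point is a library and each line the mean of 4. IAA17 stays below 27.6 CPM in all PM libraries and above 76.7 CPM in all AM libraries, IAA2 is highest in PM heat, and PM control replicate 3 stands out in IAA5, IAA19 and IAA29.

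After 1 h of heat in the PM, TAA1, YUC8, IAA1 and IAA19 fell and IAA2 rose, while IAA3, IAA5, IAA7, IAA17 and IAA29 did not pass the test. After heat in the AM, TAA1 and IAA1 fell and the other 8 were not called. A gene was called where edgeR's quasi-likelihood test, fitted over the 4 diel groups and adjusted over all genes tested, gave an adjusted p under 0.05 and the absolute log2 fold change was over 0.5. Of all tested genes, 10.6% were called lower and 7.59% higher in PM heat against the PM control, against 4 and 1 of the 10, and 8.36% lower and 5.2% higher in AM heat against the AM control, against 2 and 0 of the 10. The median log2 fold change of the 10 was -0.69 in the PM and -0.05 in the AM, whereas over all tested genes it was -0.03 in the PM and 0.03 in the AM. With the replicate number as a block, 26.5% of all genes were called in the PM and 20.3% in the AM, and the same 5 and 2 of the 10. Of the genes called, 41.6% were higher in the PM and 38.4% in the AM, against 23.3% and 26.3% under upper-quartile scaling. The spread over 4 libraries was wide enough for single libraries to matter. Of the 5 PM calls, 3 were left without PM control replicate 3, 3 without PM heat replicate 1 and 2 without PM heat replicate 3, and of the 2 AM calls that of IAA1 alone was left without AM control replicate 1 or 2 or without AM heat replicate 2, 3 or 4.

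**Figure D2:**
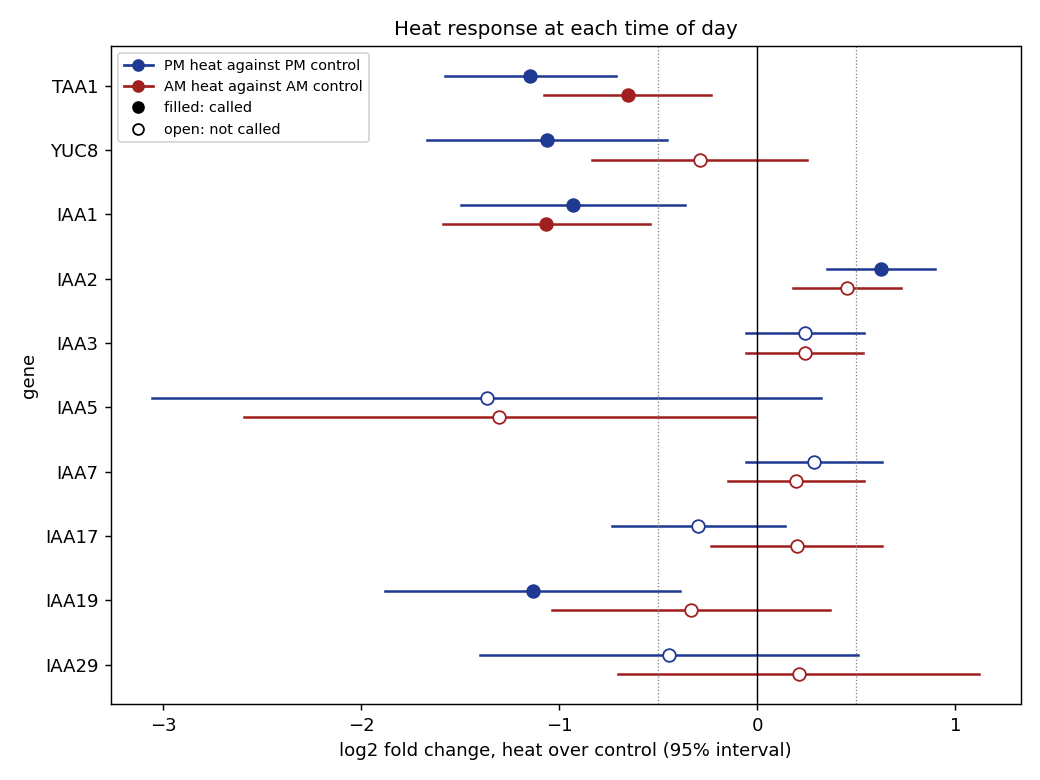
Log2 fold changes of heat over control for each gene, PM in blue and AM in red, with 95% intervals from the edgeR fit, filled where called and open where not. Dotted lines mark the fold change limit of 0.5. TAA1 and IAA1 are filled below 0 at both times, with PM values of -1.15 and -0.93 and AM values of -0.65 and -1.07, and IAA2 lies above 0 at both.

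Both synthesis genes were lower after heat in the PM. TAA1 had 3.82, 4.48, 3.75 and 2.80 CPM in PM heat, against 8.53, 7.41, 9.86 and 7.02 CPM in the PM control. No heat library reached a control library, and the fitted level in heat was 0.452 of that in the control (log2 fold change -1.15, standard error 0.20, adjusted p = 0.00167). This call held in all 29 alternatives run, with log2 fold changes between -1.29 and -1.03. In the AM the same gene had 9.32, 6.16, 7.09 and 7.42 CPM in heat, against 15.1, 13.1, 8.62 and 10.3 CPM in the control. Heat replicate 1 lay above control replicate 3, so the groups overlapped, and the AM change was smaller (-0.65, standard error 0.20, adjusted p = 0.0357). The AM call was lost without AM control replicate 1 (-0.51, adjusted p = 0.114) or 2 (-0.60, 0.0820) and without AM heat replicate 2 (-0.57, 0.105), 3 (-0.63, 0.0834) or 4 (-0.65, 0.0762), each an adjusted p from the same edgeR test.

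YUC8 was measured at 0.963, 0.468, 0.475 and 0.386 CPM in PM heat, against 1.55, 1.04, 1.05 and 1.38 CPM in the PM control. Even PM heat replicate 1, well above its group, stayed under every control library, and the fitted level was 0.479 of the control (log2 fold change -1.06, standard error 0.29, adjusted p = 0.0163). Without PM heat replicate 3 the call was lost (-0.98, adjusted p = 0.0523). In the AM, YUC8 had 3.27, 3.19, 2.41 and 2.59 CPM in heat, against 3.92, 3.92, 2.87 and 3.3 CPM in the control. Each AM heat library was below the control of the same number, but the groups overlapped and the change did not pass (-0.29, 95% interval -0.83 to 0.25, adjusted p = 0.499).

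IAA1, an Aux/IAA gene quickly induced by auxin, was lower after heat at both times. It had 2.03, 2.47, 1.53 and 2.85 CPM in PM heat, against 3.69, 3.23, 5.70 and 4.31 CPM in the PM control, and 13.5, 7.59, 13.8 and 9.77 CPM in AM heat, against 22.4, 15.7, 25.1 and 30.4 CPM in the AM control. Neither pair of groups overlapped. On the log2 scale it changed by -0.93 in the PM (standard error 0.27, adjusted p = 0.0223) and by -1.07 in the AM (standard error 0.25, adjusted p = 0.00878), fitted levels of 0.524 and 0.477 of the control. The PM call was lost without PM control replicate 3 (-0.75, adjusted p = 0.0803), PM heat replicate 1 (-0.88, 0.0555) or PM heat replicate 3 (-0.80, 0.0742).

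IAA5, which shared with IAA1 the auxin response elements shown above, was close to the limit of detection. Its 4 PM heat libraries held 6, 2, 1 and 1 counts, against 2, 2, 21 and 2 counts in the PM control, and its AM heat libraries 12, 11, 7 and 12 counts, against 22, 16, 28 and 37 counts in the AM control. In CPM, AM heat ranged from 0.474 to 0.643, below every AM control library (0.654 to 2.03), yet the change was not called (log2 fold change -1.30, 95% interval -2.59 to -0.01, adjusted p = 0.165). Without PM control replicate 3 it was called (-1.30, adjusted p = 0.0326). In the PM the estimate was -1.37 (95% interval -3.06 to 0.32, adjusted p = 0.232), and it was 0.34 without PM control replicate 3, the library with 21 counts.

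IAA19 had 1.01, 0.936, 1.21 and 1.11 CPM in PM heat, against 1.41, 1.44, 4.81 and 1.77 CPM in the PM control. All heat libraries were below all control libraries, by little in 3 of 4 controls and by far in replicate 3. The fitted change was -1.14 on the log2 scale (standard error 0.35, adjusted p = 0.0312), and without PM control replicate 3 it was -0.52 and not called (adjusted p = 0.146). The call was also lost without PM heat replicate 1 (-1.11, adjusted p = 0.0684), 2 (-1.05, 0.0758), 3 (-1.20, 0.0592) or 4 (-1.15, 0.0615). In the AM the gene had 3.21, 3.1, 2.34 and 3.69 CPM in heat, against 4.47, 4.45, 3.27 and 3.41 CPM in the control, an overlapping pair with no call (-0.34, 95% interval -1.04 to 0.37, adjusted p = 0.551).

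IAA29, known as a target of auxin and of PIF factors, did not pass at either time. It had 0.329, 0.735, 0.475 and 0.531 CPM in PM heat, against 0.361, 0.326, 1.41 and 0.663 CPM in the PM control (log2 fold change -0.45, 95% interval -1.40 to 0.51, adjusted p = 0.507). In the AM it had 1.02, 0.862, 1.45 and 0.797 CPM in heat, against 0.912, 0.572, 0.914 and 1.15 CPM in the control (0.21, 95% interval -0.70 to 1.12, adjusted p = 0.795). The groups overlapped at both times, and without PM control replicate 3 the PM estimate turned to 0.19.

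IAA2, another auxin-inducible member, alone among the 10 rose, in the PM. It had 91.3, 107, 103 and 88.8 CPM in PM heat, against 54.1, 73.0, 67.5 and 58.7 CPM in the PM control, 1.54 times the control level in the fit (log2 fold change 0.62, standard error 0.13, adjusted p = 0.0042). In the AM it had 72.9, 73.3, 69.9 and 62.6 CPM in heat, against 59.4, 43.2, 48.9 and 52.0 CPM in the control. Heat libraries lay above control libraries without overlap at both times, but the AM change of 0.45 (standard error 0.13, adjusted p = 0.0265) was under the fold change limit and so was not called. Without AM control replicate 1 (0.54, adjusted p = 0.0184) or AM heat replicate 4 (0.50, 0.0313) it passed that limit. Under upper-quartile scaling, which moved the median log2 fold change of all genes to -0.17 in the PM, the PM value was 0.48 and fell under the limit.

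IAA3, IAA7 and IAA17, 3 abundant members known from dominant mutants with altered auxin responses, showed no called heat response. In the PM their log2 fold changes were 0.24 (95% interval -0.06 to 0.54) for IAA3, 0.29 (-0.05 to 0.63) for IAA7 and -0.30 (-0.74 to 0.14) for IAA17, with adjusted p-values of 0.235, 0.215 and 0.317. In the AM they were 0.24 (-0.06 to 0.53), 0.20 (-0.15 to 0.54) and 0.20 (-0.23 to 0.63), with adjusted p-values of 0.276, 0.463 and 0.566. The PM intervals of IAA3 and IAA7 reached no lower than -0.06. The groups overlapped for all 3 genes. Set against the control of the same replicate number, heat libraries were higher in 4 of 4 numbers at both times for IAA3, in 4 of 4 in the PM and 3 of 4 in the AM for IAA7, and in 0 of 4 in the PM and 4 of 4 in the AM for IAA17. The numbers are not shown to pair libraries 1 to 1, and none of these 3 was called with the number as a block either.

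Root markers moved with the heat treatment as well, as given above: 2 of 6 were called lower in the PM and 5 of 6 in the AM. All 6 had counts in every diel library, the lowest being 1 count in PM heat and 22 in the PM control, and 2 counts in AM heat and 17 in the AM control. Their part in the fall of TAA1, YUC8, IAA1 and IAA19 was not tested. Between PM and AM none of the 6 root markers was called in either treatment by edgeR, with 0 after heat and 1 in controls at an unadjusted p under 0.05 (CASP2, log2 fold change -0.70), and their median log2 fold change was 0.39 after heat and -0.14 in controls.

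None of the 10 genes was called for a difference between its heat responses in the PM and in the AM. Tested as the interaction in the same edgeR fit, it was called for 0 of the 10, with 0 at an unadjusted p under 0.05 and 0 with DESeq2, and for 0.234% (higher) and 0.164% (lower) of all tested genes. With the replicate number as a block 3.21% of all genes were called, and again 0 of the 10, of which 2 had an unadjusted p under 0.05, IAA17 (-0.48, adjusted p = 0.148) and YUC8 (-0.80, adjusted p = 0.163). In the fit without the block, from which the values that follow also come, the lowest adjusted p was that of YUC8. It was 0.433, for a difference of -0.77 (95% interval -1.58 to 0.04). IAA19 had -0.80 (-1.82 to 0.22, adjusted p = 0.547), TAA1 -0.49 (-1.09 to 0.11, 0.521) and IAA17 -0.50 (-1.11 to 0.12, 0.528). For IAA1, with 0.13 (-0.64 to 0.91, adjusted p = 0.938), and IAA3, with 0.0011 (-0.41 to 0.41, 1.00), the estimates lay near 0. A gene called in the PM and not in the AM is therefore not shown to respond differently at the 2 times.

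The largest differences among the 10 genes lay between the times of day. In the controls, YUC8, IAA1, IAA3, IAA5 and IAA17 were lower in the PM than in the AM, with fitted levels of 0.181 to 0.487 of the AM level, and no gene was called higher. After heat, the same 5 and also TAA1 and IAA19 were lower in the PM, again with none called higher. Of all tested genes 14.9% were called lower and 13.8% higher in the PM control against the AM control, and 19% lower and 17.9% higher in PM heat against AM heat, beside 5 and 0, and 7 and 0, of the 10. The median log2 fold change of the 10 was -0.88 between the controls and -1.28 between the heat groups, against 0.07 and -0.0043 over all tested genes. The shoot markers moved with time of day as well: 3 of 4, LHCB3, PSAF and RCA, were called lower in the PM in both treatments, by log2 fold changes of -5.77, -1.99 and -1.80 in controls. The 4 summed to 17453 to 22404 CPM in the PM control, against 41845 to 49265 CPM in the AM control, and to 23527 to 28768 CPM in PM heat, against 38988 to 59522 CPM in AM heat. Their part in the time-of-day values of the 10 genes was not tested.

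**Figure D3:**
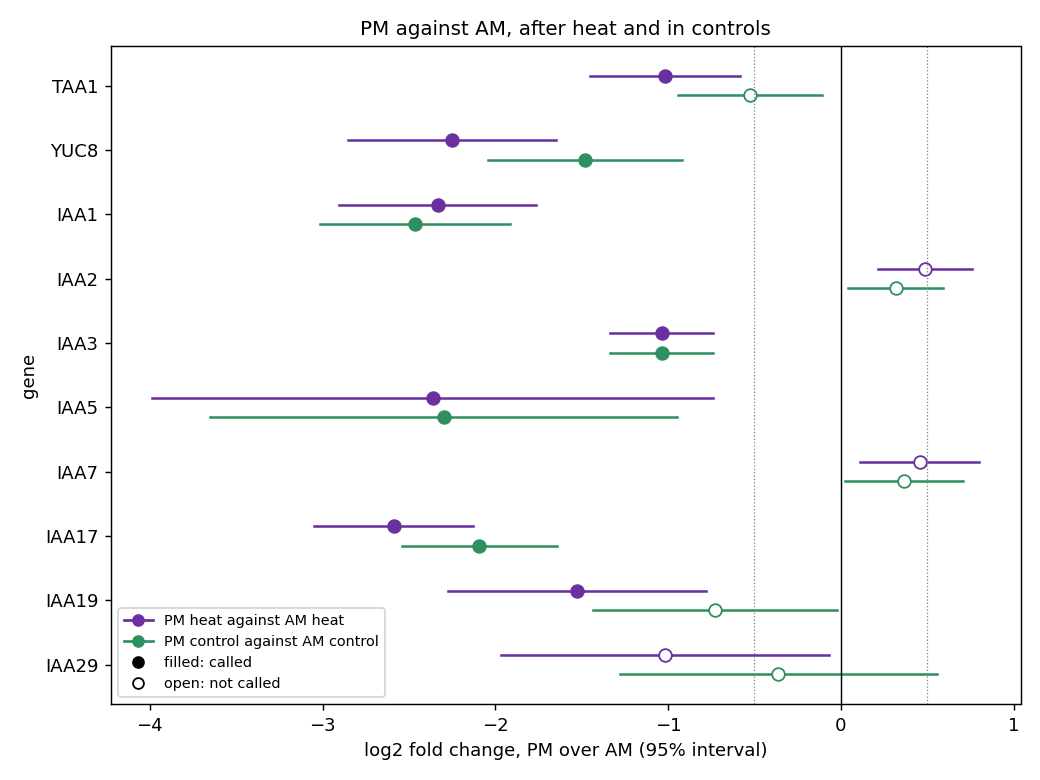
Log2 fold changes of PM over AM for each gene, after heat in purple and in controls in green, with 95% intervals from the edgeR fit, filled where called and open where not. Dotted lines mark the fold change limit of 0.5. IAA1, IAA5 and IAA17 lie between -2.59 and -2.09 in both comparisons and YUC8 at -2.25 after heat, while IAA2 and IAA7 are the 2 genes above 0 in both comparisons.

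IAA17 showed the widest gap of the abundant members. It had 27.5, 19.9, 19.1 and 18.6 CPM in the PM control, against 97.6, 108, 76.8 and 80.6 CPM in the AM control, and 23.1, 15.8, 14.0 and 16.2 CPM in PM heat, against 117, 137, 78.4 and 84.6 CPM in AM heat. The highest PM library was below the lowest AM library by far in both treatments. Its log2 fold change in controls, -2.09, had a standard error of 0.21 and an adjusted p of 1.22e-06, and that after heat, -2.59, a standard error of 0.22 and an adjusted p of 1.02e-07, and both calls held in all 28 alternatives.

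IAA3, the neighbour of IAA17 on chromosome 1, shifted the same way by less. It had 18.9, 19.0, 24.5 and 22.5 CPM in the PM control, against 38.7, 42.8, 42.4 and 50.5 CPM in the AM control, and 24.0, 19.9, 29.3 and 27.1 CPM in PM heat, against 44.4, 52.3, 57.7 and 51.3 CPM in AM heat. The groups did not overlap, and both comparisons gave a log2 fold change of -1.04 (standard error 0.14, adjusted p = 2.90e-05 in controls and 2.06e-05 after heat). The other facing pair, IAA2 and IAA7, had the opposite sign. IAA7 had 131, 148, 179 and 176 CPM in PM heat, against 120, 108, 129 and 106 CPM in AM heat, with no overlap, and 112, 110, 157 and 141 CPM in the PM control, against 128, 99.1, 82.4 and 94.7 CPM in the AM control, with overlap. Its log2 fold change after heat was 0.46 (standard error 0.16, adjusted p = 0.0329), under the fold change limit, and 0.36 in controls (95% interval 0.02 to 0.71, adjusted p = 0.0975). Without AM heat replicate 3 (0.51, adjusted p = 0.0330), PM heat replicate 1 (0.54, 0.0207) or PM heat replicate 2 (0.50, 0.0292) the value after heat was past the limit.

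IAA2 in turn was higher in PM heat than in AM heat in all libraries, by 0.49 on the log2 scale (standard error 0.13, adjusted p = 0.00621), again under the fold change limit, and by 0.32 in controls (95% interval 0.04 to 0.59, adjusted p = 0.0715), where the groups overlapped. Without AM heat replicate 1 (0.51, adjusted p = 0.0118) or 2 (0.51, 0.0109) or PM heat replicate 1 (0.52, 0.00916) or 4 (0.53, 0.00793) the value after heat was past the limit. The levels of IAA2 were thus ordered from the AM control (mean 50.9 CPM) over the PM control (63.3 CPM) and AM heat (69.7 CPM) to PM heat (97.6 CPM), where only PM heat was clear of its neighbour.

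Among the synthesis genes YUC8 differed most between the times. Its PM control libraries (1.04 to 1.55 CPM) lay below all AM control libraries (2.87 to 3.92 CPM), and its PM heat libraries (0.386 to 0.963 CPM) below all AM heat libraries (2.41 to 3.27 CPM). Fitted on the log2 scale, the gap was -1.48 in controls (standard error 0.27, adjusted p = 4.16e-04) and -2.25 after heat (standard error 0.28, adjusted p = 9.28e-06). From PM heat over the PM control to AM heat each step in its levels was free of overlap, and only the 2 AM groups overlapped.

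TAA1 was lower in PM heat than in AM heat (-1.02, standard error 0.20, adjusted p = 7.91e-04), with no overlap between the groups. In controls its difference of -0.52 (standard error 0.20, adjusted p = 0.0515) missed the threshold, and it passed with the replicate number as a block (-0.51, adjusted p = 0.0256), a fit in which 34.7% of all tested genes were called. It passed in 11 of 28 alternatives, DESeq2 (-0.55, adjusted p = 0.0259), DESeq2's size factors in edgeR (-0.55, 0.0441), the filterByExpr filter (-0.52, 0.0496) and a batch of replicates 1 and 2 against 3 and 4 (-0.50, 0.0243) among them. It also passed without AM control replicate 3 (-0.65, adjusted p = 0.0207), PM control replicate 3 (-0.62, 0.0343), AM heat replicate 1 (-0.52, 0.0485), PM heat replicate 2 (-0.55, 0.0398) or PM heat replicate 4 (-0.52, 0.0463), libraries of the heat groups entering through the shared estimate of the spread.

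IAA1 combined both shifts, and no neighbouring groups overlapped in the order PM heat, PM control, AM heat, AM control, with means of 2.22, 4.23, 11.2 and 23.4 CPM. Its log2 fold change between PM and AM was -2.47 (standard error 0.26, adjusted p = 1.86e-06) in controls and -2.33 (standard error 0.27, adjusted p = 3.57e-06) after heat. IAA5 had values of like size, -2.30 (standard error 0.64, adjusted p = 0.0108) in controls, with overlap through PM control replicate 3, and -2.36 (standard error 0.77, adjusted p = 0.0205) after heat, with none. The control value was -4.01 without PM control replicate 3, and the call after heat was lost without PM heat replicate 3 (-2.19, adjusted p = 0.0529) or 4 (-2.16, 0.0556).

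IAA19 was called after heat (-1.53, standard error 0.35, adjusted p = 0.00233), where PM and AM libraries did not overlap, and not in controls (-0.73, 95% interval -1.44 to -0.03, adjusted p = 0.106). Without PM control replicate 3 the control difference was -1.35 and was called (adjusted p = 2.73e-04). IAA29 had a value of -1.02 after heat (standard error 0.45, adjusted p = 0.0810), with all PM libraries below all AM libraries, and -0.36 in controls (95% interval -1.28 to 0.55). With the replicate block the value after heat was called (-1.01, adjusted p = 0.0462), in a fit that called 42.2% of all tested genes, and it was called without PM control replicate 3 as well (-1.02, adjusted p = 0.0296).

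PM control replicate 3 stood out across the list. It held the highest level of its group in 7 of the 10 genes, TAA1, IAA1, IAA3, IAA5, IAA7, IAA19 and IAA29, and the lowest in none. In every other diel library between 0 and 5 of the 10 were highest. No such count was made over all genes, so it is not shown to be particular to this list. What changed without it is given with IAA1, IAA5, IAA19, IAA29 and TAA1 above.

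Other genes of the pathway were counted by list. Over all tested genes, 10.6% were called lower and 7.59% higher after heat in the PM, and 8.36% and 5.2% in the AM. Of the 17 tested among 21 other Aux/IAA genes, 1 was higher (IAA18, log2 fold change 0.85) and 2 lower (IAA28, -2.00, and IAA27, -0.67) in PM heat against the PM control, and none was called in the AM, where 4 had an unadjusted p under 0.05. Among 6 tested of 12 other TAA and YUC genes, TAR2, a relative of TAA1, was lower in the PM (-0.59) and YUC3 in the AM (-1.82). Of 6 tested GH3 genes, which encode enzymes that attach amino acids to auxin, GH3.17 alone was lower in the AM (-0.72), and none was called in the PM, where 2 had an unadjusted p under 0.05. The 5 activating ARFs held 2 called lower in the PM, ARF8 (-0.64) and ARF5 (-0.57), and none called in the AM, where 1 had an unadjusted p under 0.05. None of the 6 TIR1/AFB receptors was called at either time, with 3 in the PM and 1 in the AM at an unadjusted p under 0.05. None of the 6 growth-linked genes SAUR19 to SAUR24 was called after heat either, with 0 in the PM and 1 in the AM at an unadjusted p under 0.05, although these near-identical tandem genes may share reads.

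PIF4 and PIF5, transcription factors upstream of YUC8, IAA19 and IAA29 in Arabidopsis warmth and shade responses, had the opposite sign to YUC8 and IAA19 in the PM. PIF4 was higher in PM heat than in the PM control by 2.86 on the log2 scale and PIF5 by 3.24, whereas the AM values of 0.34 and 0.0009 were not called, and the interaction was called for both, the 2 of 3 listed PIFs for which it was. Over all tested genes, 14.9% were called lower and 13.8% higher in the PM in controls, and 19% and 17.9% after heat. Between the times of day all 3 PIFs were lower in the PM in controls and after heat. So were 5 of 6 SAUR genes in controls and 6 of 6 after heat. Of the 6 other TAA and YUC genes 3 were lower in the PM after heat and 2 in controls, and of the 5 ARFs 2 after heat and 1 in controls, with none higher. Of the 6 GH3 genes 2 were higher in the PM after heat (GH3.2, 1.85, and GH3.3, 0.84) and 1 lower, and 1 was lower in controls. Of the 6 receptors 1, TIR1, was higher in the PM after heat (0.83), and 1 lower in controls. Among other Aux/IAA genes 3 were higher and 3 lower in the PM control, and 3 higher and 4 lower in PM heat. IAA14, which faces IAA1, was among the lower ones, by -2.64 in controls and -2.85 after heat.

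In constant light each condition had 1 library and no test was made. Intervals given for these libraries are exact 95% Poisson or binomial intervals that cover counting error only. TAA1 was again lower in heat at both times, with 1.38 CPM (interval 0.689 to 2.47) in LL PM heat, against 4.37 CPM (3.38 to 5.56) in the LL PM control, and 3.03 CPM in LL AM heat, against 5.78 CPM in the LL AM control. IAA1 had 2.51 CPM in LL PM heat, against 4.30 CPM in the LL PM control, and 6.07 CPM in LL AM heat, against 9.10 CPM in the LL AM control. YUC8 had 2 counts, 0.251 CPM, in LL PM heat, against 26 counts, 1.72 CPM, in the LL PM control, a log2 ratio of -2.78 (-5.90 to -0.78), and 2.02 CPM in LL AM heat, against 1.38 CPM in the LL AM control. These 3 genes had the same sign in LL as in the diel libraries in the PM, and YUC8 had another sign in the AM, with an interval that spanned 0 (-0.31 to 1.4).

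**Figure D4:**
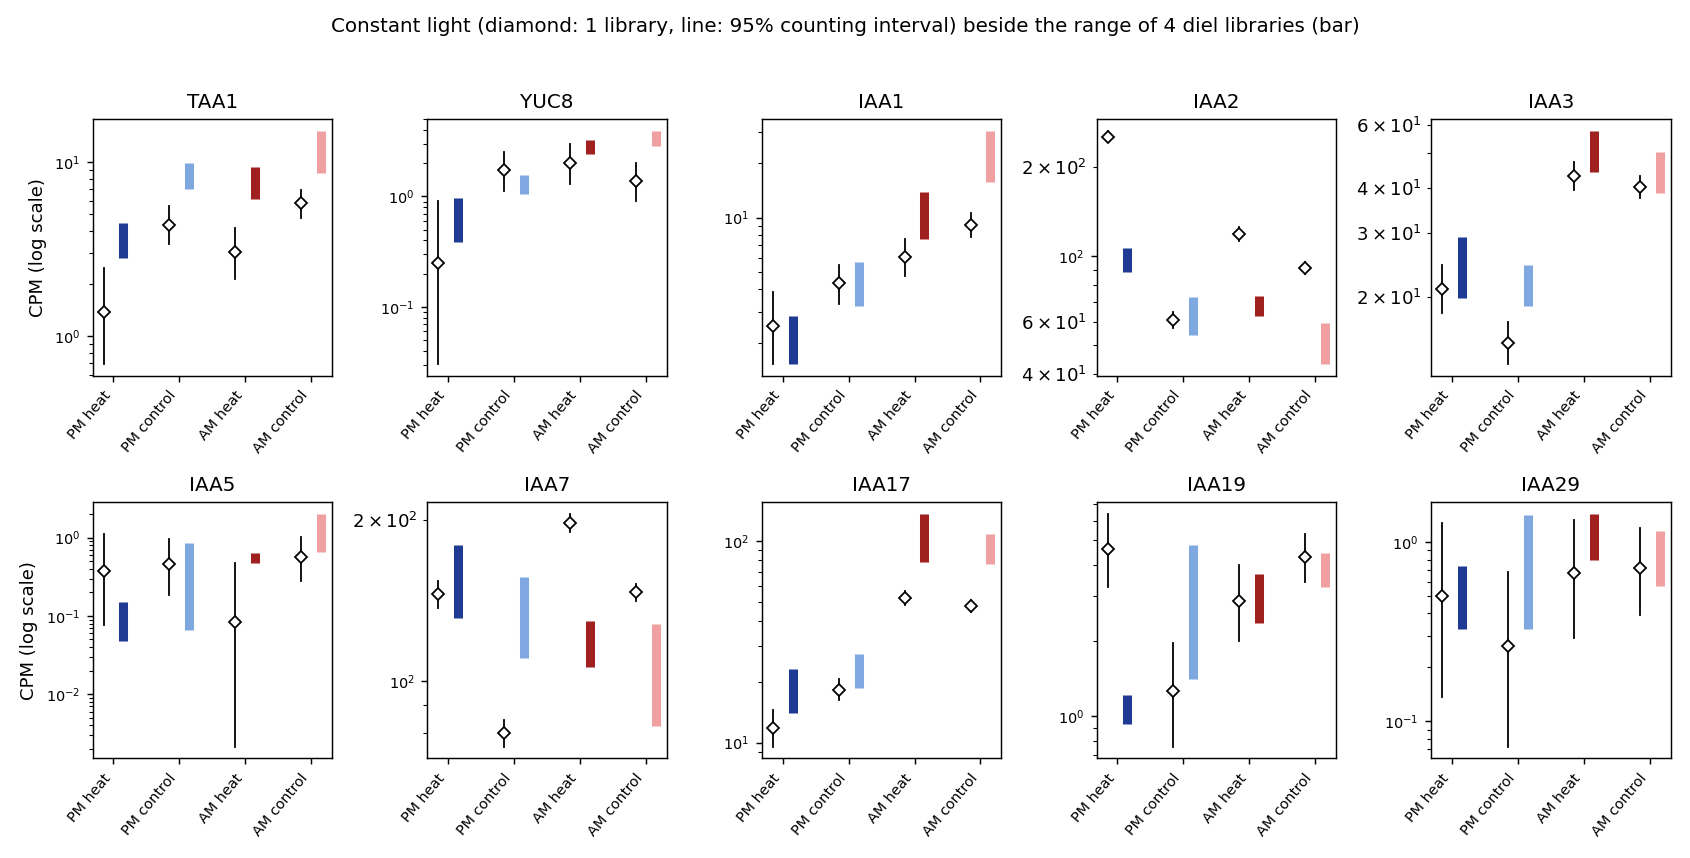
Levels (CPM, log axes, a separate scale for each gene) in constant light, where each diamond is 1 library with its 95% counting interval, beside bars that span the 4 diel libraries of the same treatment and time. IAA2 in LL PM heat, at 254 CPM, lies above all diel libraries, and IAA19 in LL PM heat, at 4.64 CPM, lies above the diel PM heat range of 0.936 to 1.21 CPM.

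In LL PM heat, IAA2 and IAA19 lay above all 4 diel PM heat libraries. IAA5 did as well, but on 3 counts (0.377 CPM, interval 0.0776 to 1.10, against at most 0.152 CPM in diel PM heat). IAA2 reached 254 CPM (243 to 266) in LL PM heat, against 60.9 CPM in the LL PM control, a log2 ratio of 2.06 (1.95 to 2.18) beside the diel 0.62, and IAA19 had 4.64 CPM in LL PM heat, against 1.26 CPM in the LL PM control, a ratio of 1.88 (1.05 to 2.76) beside the diel -1.14. IAA7 was at 145 CPM in LL PM heat, against 79.7 CPM in the LL PM control (0.87, 0.75 to 0.98), and IAA3 at 21.1 CPM, against 14.9 CPM (0.50, 0.20 to 0.80). IAA17 was at 11.8 CPM in LL PM heat, against 18.3 CPM in the LL PM control (-0.63, -0.98 to -0.29). In all, 5 of the 10 ratios of heat to control were below 0 in the PM and 5 in the AM, beside 43.1% and 54.2% of all genes compared. Genes compared in LL were tested genes that averaged 5 CPM or more over the 2 libraries (14498 in the PM and 14488 in the AM). YUC8, IAA5, IAA19 and IAA29 were under that limit in every LL comparison, and TAA1 and IAA1 in some. The shares thus come from a more abundant set than the 10. The root markers summed to 3.01 CPM in LL PM heat, against 13.8 CPM in the LL PM control, and to 6.66 CPM in LL AM heat, against 5.22 CPM in the LL AM control, so that they were lower in heat in the PM alone. COBL9 and RHD6 were at 0 counts in LL PM heat. The part of these markers in the LL values was not tested.

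Between the 2 times of day in constant light, 9 of the 10 genes had a lower level in the LL PM control than in the LL AM control, and 7 of 10 in LL PM heat than in LL AM heat. Of the genes that averaged 5 CPM or more over the 2 libraries, 57.5% and 47.1% were lower, again a more abundant set than the 10. IAA17 had 18.3 CPM in the LL PM control, against 47.6 CPM in the LL AM control, and 11.8 CPM in LL PM heat, against 51.9 CPM in LL AM heat, log2 ratios of -1.38 (-1.58 to -1.18) and -2.14 (-2.47 to -1.82) beside the diel -2.09 and -2.59. IAA3 had ratios of -1.44 (-1.66 to -1.22) and -1.04 (-1.30 to -0.79), and IAA1 of -1.08 (-1.51 to -0.66) and -1.27 (-2.07 to -0.54). The gap of YUC8 between controls was not seen in LL, where it had 1.72 CPM in the PM and 1.38 CPM in the AM (0.32, -0.52 to 1.15), whereas after heat it was lower in the LL PM than in the LL AM library (-3.01, -6.14 to -1.0). TAA1 was also lower after heat (-1.14, -2.26 to -0.13). IAA19 and IAA5, lower in PM heat in the diel libraries, had the other sign in LL, with intervals that spanned 0 (0.70, -0.02 to 1.41, and 2.16, -1.48 to 7.87). IAA2 and IAA7, higher in the PM in the diel means, were lower in the LL PM control than in the LL AM control, by -0.59 (-0.71 to -0.47) and -0.88 (-0.98 to -0.78). After heat IAA7 was again lower in the LL PM than in the LL AM library (-0.44, -0.55 to -0.34), beside the diel 0.46. IAA2 was higher there (1.09, 0.995 to 1.19), beside the diel 0.49. With 1 library a condition, a difference between LL and diel values cannot be told apart from the spread between libraries, and IAA5 and IAA29 had 14 counts or fewer in every LL library.

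Across the 16 diel libraries the members followed each other to different degrees. By Pearson's r of log2 CPM, which describes libraries that fall into 4 groups and is given without a test, YUC8 and IAA17 were closest (0.93), followed by IAA1 and IAA5 (0.91), YUC8 and IAA1 (0.88) and IAA3 and IAA17 (0.87), while TAA1 and IAA2 were the most opposed (-0.81) and IAA2 and IAA7 had 0.74. Among the 14816 genes that averaged 5 CPM or more, the gene most like IAA17 was AT4G09750 (r = 0.995), followed by AT1G10900 (0.992), and those most like YUC8 were ATCAD4, a cinnamyl alcohol dehydrogenase of lignin synthesis (0.980), and AT4G30100 (0.979). IAA1 was nearest to AT3G61960 (0.971), IAA3 to AT3G56160 (0.983), IAA2 to AT3G47550 (0.967), TAA1 to AT5G41870 (0.926) and IAA19 to AAP5, an amino acid permease (0.932). IAA7 had its highest r with RABE1c (0.907), a small GTPase, IAA5 with AT5G51260 (0.943) and IAA29 with SAUR68 (0.869). YUC8, IAA5, IAA19 and IAA29 averaged less than 5 CPM and so could not be named as nearest genes. Of the other 6, IAA1 stood among the 100 nearest of IAA5, and no other member stood among those of another.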

How the data were processed

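RNA was measured in 16 diel libraries (4 groups of 4) and 4 constant light libraries (1 per condition), grouped by their labels. The deposited values are raw counts for each locus; the authors made them from poly(A)-selected RNA with TopHat2 2.1.0 on TAIR10 and HTSeq 0.6.0 with the reverse-strand setting, without normalization. The methods call the libraries directional. Reads shared by near-identical genes are left out by such counting.

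From these counts, edgeR 4.0.16 (R 4.3.3) fitted the 4 diel groups together: TMM normalization, glmQLFit and glmQLFTest (common biological coefficient of variation 0.261, 12 residual degrees of freedom), a filter that kept loci reaching 10 counts in 1 or more diel libraries (21404 of 33601), and Benjamini-Hochberg adjustment over all of them. Called means an adjusted p under 0.05 and an absolute log2 fold change over 0.5, with no fold change limit for the interaction. Standard errors were worked back from F, as the size of the log2 fold change divided by its square root. Constant light CPM use TMM factors set against the diel reference library, with exact intervals at 95% and no test. Diel totals of 14637914 to 38812441 counts, and LL totals of 8594948 to 19957156, set the counting error. Replicates of a group always differed by more than sampling noise (dispersion index 11.2 to 140 over 24 pairs).

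The replicate numbers are shared between groups. Over 14816 genes, deviations from the group means correlated between same-numbered libraries in all 24 pairs (r from 0.106 to 0.790, mean 0.502), so the numbers were taken to pair the libraries, a pairing that comes from the data and not from the labels. The main fit has no block, so its standard errors and p-values do not take this shared structure out. Values fitted with the replicate number as a block are printed where they change a call.

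The members, the pathway lists and the tests were chosen with earlier results of these data known. All 10 loci are described, and from each pathway list at most 2 genes are named, those of largest change called in a heat response, except IAA14, the PM and AM values of 2 PIFs and the list genes counted between times of day, chosen after their values were seen. Gene symbols, positions and promoter windows (250 bases before to 50 after the start) come from RefSeq's TAIR10.1, since no prepared promoter table was used, and were searched with Python 3.11.15. DESeq2 1.42.0, other normalizations and filters, a test against the fold change limit, each time of day fitted alone, a batch of replicates 1 and 2 against 3 and 4, and leaving out libraries were alternatives. On simulated counts for PM heat against PM control, edgeR recovered 178 of 200 genes changed by 2 on the log2 scale (89%) with 12 false calls among 21109 genes, and for the interaction 148 of 200 (74%) with 3. The simulated libraries were drawn independently, without the structure shared by the real ones. A change of 2 also exceeds the largest interaction estimate of the 10 genes (-0.80, IAA19). The recovery therefore does not tell how often smaller changes would be called. Protein sequences were not used here, and 1 root marker of the list is not reported here.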

Additional observations from a re-analysis of the deposited data

Results flagged for a closer look

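Of 40 sets of 4 libraries (10 genes in 4 diel groups), 4 had a library far from the others by Dixon's criterion, where chance marks about 1 in 20. IAA5 had 0.849 CPM in PM control replicate 3, against 0.0653 to 0.110 CPM in the other 3 libraries of that group. IAA19 had 4.81 CPM in the same library, against 1.41 to 1.77 CPM. YUC8 had 0.963 CPM in PM heat replicate 1, against 0.386 to 0.475 CPM. IAA17 had 27.5 CPM in PM control replicate 1, against 18.6 to 19.9 CPM.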

How the results depend on the processing

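Each of the 50 values of the 10 genes in 5 comparisons was recomputed under 27 to 29 alternatives, 1410 values in all. Of these, 1334 kept their side of the threshold, 46 lost their call and 30 gained one. No called value changed sign, while 32 values that were not called did, 28 of them of the interaction and 4 of the PM heat responses of IAA5 and IAA29. The counts of called genes moved as follows. A test against the fold change limit left 1 of 5 genes called in PM heat against the PM control and 0 of 2 in AM heat against the AM control, since it asks for more than the limit. Fitting the PM libraries alone left 2 of 5. With single libraries or replicate numbers left out, the count ranged from 1 to 5 in PM heat against the PM control, from 0 to 3 in AM heat against the AM control, from 4 to 7 in the PM control against the AM control, from 6 to 9 in PM heat against AM heat, and was 0 throughout for the interaction. The replicate block gave 5, 2, 6, 8 and 0 called genes for the same 5 comparisons, and besides TAA1 between controls and IAA29 between heat groups it changed no other call. Upper-quartile scaling shifted the median of all genes from -0.03 to -0.17 in the PM heat response and from 0.03 to -0.08 in the AM one, and IAA2 lost its PM call. The causes were not tested. In constant light, IAA5 in the LL PM control against the LL AM control changed sign without TMM scaling (0.02), where 8 and not 9 genes were lower.

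Over all genes, the interaction count was 85 with edgeR, 564 with DESeq2 and 688 with the replicate block. With replicates 1 and 2 against 3 and 4 as a batch it was 1100. It was 10 to 38 with a replicate number left out. With single libraries left out it was 57 (without PM heat replicate 3) to 252 (without PM control replicate 2). Depth limits IAA5 and IAA29, and constant light has no replicate check.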
